A study of Canis lupus familiaris with 18 samples.

Results

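The genes described here encode 10 proteins of myocyte calcium cycling, the movement of calcium into, within and out of the heart muscle cell at each beat: CACNA1C (entry), RYR2, TRDN and CASQ2 (release), JPH2 (the junction of the surface membrane with the sarcoplasmic reticulum, SR), ATP2A2 and PLN (uptake), SLC8A1 (export), and the kinases CAMK2D and CAMK2B. They were found on the array by gene symbol, as every probe set whose only platform symbol is one of the 10. That gave 30 of 42924 probe sets and 8 of the 10 genes, among 15115 genes with such a symbol. CASQ2, the calcium buffer of the SR, and JPH2, which tethers the SR to the surface membrane, had no such probe set and are not analysed here.

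Cardiac myocytes contract when calcium enters through L-type channels at the cell surface and triggers a larger release of calcium from the SR, the internal calcium store. Relaxation follows when the calcium is pumped back into the SR or exported across the cell membrane, and calcium/calmodulin-dependent kinases tune both steps by phosphorylation. Reduced SR uptake and leaky SR release are well-known features of the failing heart.

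The 18 Canine_2 arrays (Affymetrix) measured total RNA from snap-frozen pieces of right atrium (RA) and right ventricle (RV) of adult mongrel or beagle dogs. Each chamber had 3 arrays from controls, 3 from early heart failure (HF), made by 2 weeks of ventricular tachypacing, and 3 from late HF, made by 5 weeks of it. The protocol text gives 2 to 3 and 5 to 6 weeks instead, and the labels say nothing of sham operation in controls, of each dog's breed or of which arrays came from the same dog. The samples are labelled as biological replicates, so a p-value weighs a difference against the variation among these arrays, whatever gave rise to it. All values below are log2 signals of probe sets, so a difference of 1 is a doubling of signal. Signals of different probe sets depend on the probes and are not set against each other.

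Each gene is represented by its brightest probe set, and 25 of the 30 probe sets passed the filter that left out the dimmest 40% of the array. These were 2 of 3 for CACNA1C, 2 of 2 for RYR2, 9 of 9 for TRDN, 2 of 2 for ATP2A2, 3 of 3 for PLN, 1 of 2 for SLC8A1, 4 of 7 for CAMK2D and 2 of 2 for CAMK2B. Differences come from a limma fit over all 18 arrays with their standard errors (SE, 3 arrays a group), and p-values were adjusted over the 25752 probe sets tested by Benjamini-Hochberg, with a threshold of 0.05. A share such as "0.746% of genes" gives, for comparison, how many of the 10988 genes tested passed the same threshold.

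The labelled chambers were checked against the myosin light chains MYL2 and MYL3 (ventricle) and MYL7 (atrium). The library labelled RA late 3 had 14.17 for MYL2, 13.89 for MYL3 and 11.65 for MYL7. RV controls lay at 14.13 to 14.17, 14.02 to 14.15 and 11.70 to 12.31 for these genes, and RA controls at 6.04 to 9.38, 7.59 to 7.97 and 14.01 to 14.08. Other markers of this library did not all point to a ventricle. The connexin GJA5, an atrial marker, was 8.74, against 6.47 to 7.08 in RV controls and 8.94 to 9.21 in RA controls. The atrial light chain MYL4 was 11.65, between the 7.89 to 10.39 of RV controls and the 13.98 to 14.03 of RA controls. RV arrays with HF reached 11.79 for MYL4 (RV late 2), however, and the other RA arrays with HF lay at 13.88 to 14.05. The ventricular transcription factor IRX5 was 8.10, against 7.56 to 8.26 in RV controls and 5.02 to 5.24 in RA controls. Of these markers, only GJA5 was thus at an atrial level in this library. It stood apart from the other RA arrays, and results that rest on it are given with and without it. The other RA arrays with HF had 9.73 to 12.06 for MYL2, above the RA controls. RV late 1 stood apart less far, at 12.76 for MYL2 and 12.35 for MYL3. Cardiac troponin T (TNNT2) was bright on all arrays, at 13.13 to 13.75. Over 13 cardiac myocyte markers the log2 of the summed signal spanned 16.67 to 16.72 in RA controls, 16.46 to 16.68 in RA early HF and 16.41 to 16.82 in RA late HF, and in RV it was 16.72 to 16.79 in controls, 16.80 to 16.97 in early and 16.68 to 16.79 in late HF. Over 10 fibroblast markers it spanned 13.50 to 13.66 in RA controls, 14.21 to 15.15 in RA early HF and 13.01 to 14.88 in RA late HF, and in RV it was 12.67 to 12.79 in controls, 13.12 to 13.35 in early and 13.50 to 13.80 in late HF. The mean signal of 11 macrophage markers was 7.27 to 7.43 in RA controls, 7.92 to 8.73 in RA early HF and 7.28 to 8.47 in RA late HF, with the library labelled RA late 3 lowest, and in RV it was 7.16 to 7.30 in controls, 7.15 to 7.68 in early and 7.66 to 7.81 in late HF. In these pieces of tissue, fewer myocytes and less RNA per myocyte cannot be told apart.

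The first question of the design is whether the failing chambers differ from controls. With all arrays, 0 of the 8 genes passed the threshold in any of the 4 comparisons by limma. The share of all genes past it was 0.746% in RA early HF, 0.0364% in RA late HF, 0.1% in RV early HF and 0% in RV late HF. At an unadjusted p under 0.05 there were 1, 2, 2 and 1 of the 8 genes in these comparisons. In early HF of the RA 7 of 8 differences were negative, with a median of -0.26 against -0.02 over all genes. The counts of negative differences were 6 of 8 in RA late HF (median -0.12), 5 of 8 in RV early HF (median -0.08) and 5 of 8 in RV late HF (median -0.18), with medians of -0.0033, -0.01 and -0.01 over all genes. Without the library labelled RA late 3, RYR2 passed as lower in RA early and RA late HF and CAMK2B as lower in RV late HF, against 1.37%, 0.218% and 0.0364% of genes lower in those comparisons, and the median in RA late HF was -0.31. In RV early HF 0 of 8 passed without that library, against 0.146% of genes lower.

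The overlap of the groups was counted on the arrays themselves. All 3 HF arrays lay below all 3 controls for RYR2, ATP2A2 and SLC8A1 in RA early HF, which is 3 of 8 genes against 9.45% of all genes. CACNA1C, RYR2, ATP2A2 and CAMK2B did so in RV early HF, 4 of 8 against 8.98%, and again in RV late HF, 4 of 8 against 10.5%. Both RV comparisons use the same 3 controls, and so do both RA comparisons theirs. In RA late HF 0 of 8 did so, against 5.87%. There RA late 1 and RA late 2 lay below all 3 controls for RYR2, SLC8A1 and CAMK2B, and the library labelled RA late 3 did not. The share of all genes was not counted without that library. In none of the 4 comparisons did a gene of the 8 have all HF arrays above all controls, against 8.66%, 6.11%, 7.02% and 9.48% of all genes in RA early, RA late, RV early and RV late HF.

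**Figure D1:**
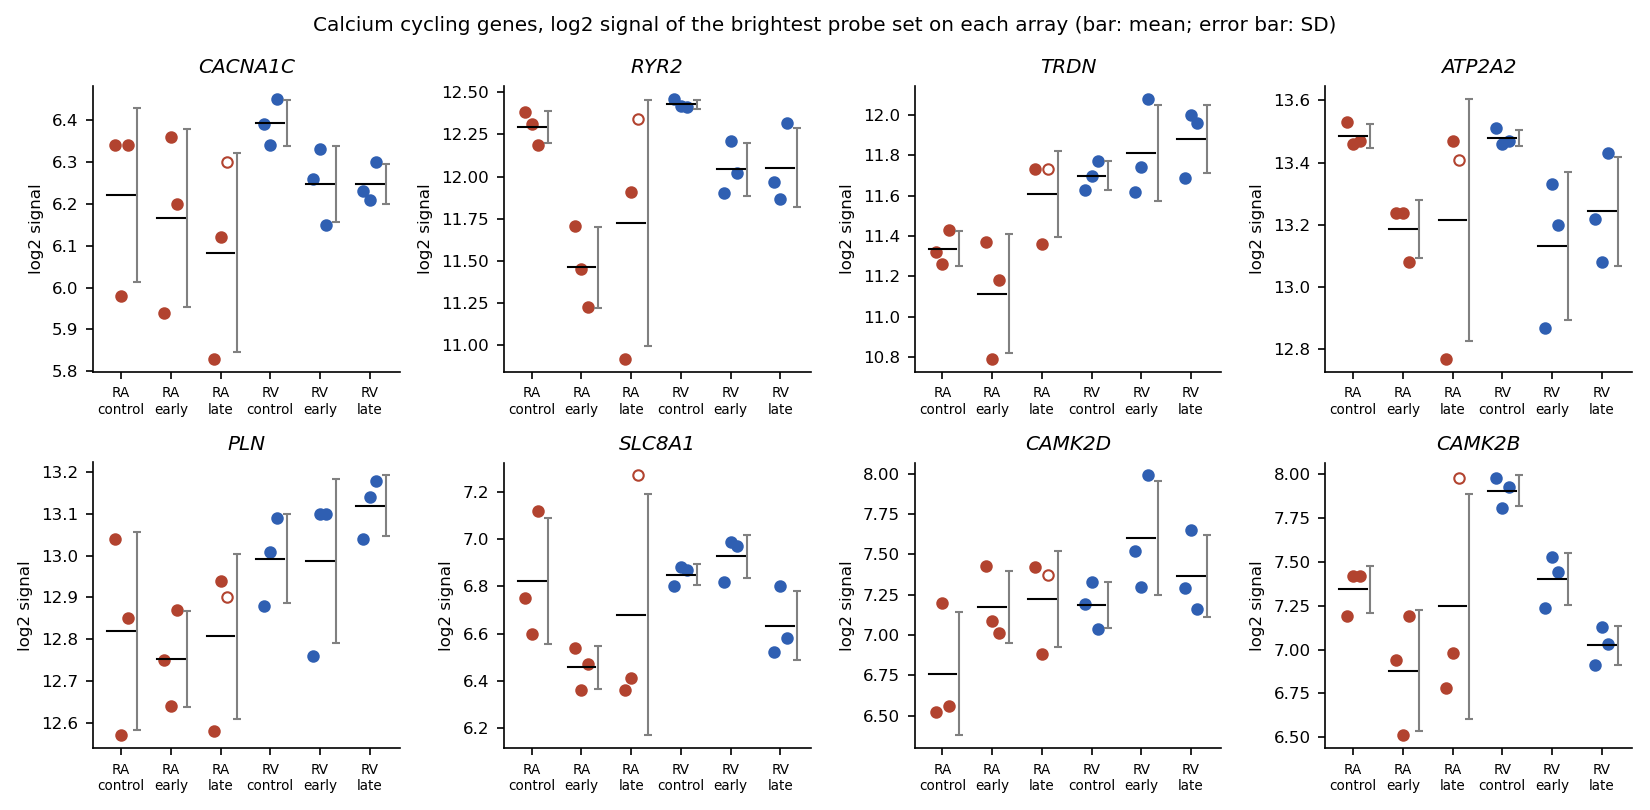
Log2 signal of the brightest probe set of each of the 8 genes (vertical axis, own scale for each gene) on each of the 18 arrays, by chamber and stage. Points are arrays, horizontal bars group means and error bars the SD of 3 arrays, and the hollow point is the library labelled RA late 3. RYR2 spans 12.19 to 12.38 in RA controls, 11.23 to 11.71 in RA early HF and 10.92 to 12.34 in RA late HF, where the hollow point is the highest.

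CACNA1C encodes the pore of the cardiac L-type channel, the entry step of the cycle. In RA its signal was 6.34, 5.98 and 6.34 in controls, 5.94, 6.36 and 6.20 in early HF, and 5.83, 6.12 and 6.30 in late HF. These 3 groups overlapped. In RV it was 6.39, 6.34 and 6.45 in controls, 6.26, 6.33 and 6.15 in early HF, and 6.23, 6.21 and 6.30 in late HF, so that each HF array lay below each control by a small margin. The difference was -0.15 (SE 0.13, adjusted p = 0.859, 95% interval -0.42 to 0.12) in RV early HF and -0.15 (SE 0.13, adjusted p = 0.74) in RV late HF. The other CACNA1C probe set past the filter had differences of -0.01 and -0.05 there, with groups that overlapped.

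RYR2 encodes the ryanodine receptor, the channel through which the SR releases calcium. The RA signal was 12.38, 12.31 and 12.19 in controls, 11.71, 11.45 and 11.23 in early HF, and 10.92, 11.91 and 12.34 in late HF. Every early array and the first 2 of the late ones lay below the controls, while the library labelled RA late 3 lay among them. The RV signal was 12.46, 12.42 and 12.41 in controls, 11.90, 12.21 and 12.02 in early HF, and 11.97, 11.87 and 12.32 in late HF. All 6 RV arrays with HF lay below the 3 RV controls.

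Against RA controls, RYR2 had a difference of -0.83 in RA early HF (SE 0.24, adjusted p = 0.117), a signal 1.78-fold below controls, and of -0.57 in RA late HF (SE 0.24, adjusted p = 0.381). With the library labelled RA late 3 left out, the RA early difference was the same with an SE of 0.19 and passed the threshold (adjusted p = 0.0272). The RA late difference was then -0.88 (SE 0.21, adjusted p = 0.0491, 2 late arrays). RYR2 also passed in RA early HF when only the RA early and RA control arrays were fitted (adjusted p = 0.0118) and without RA late 1 (adjusted p = 0.00684), and in no other fit that left out 1 array. Centring the arrays on the 13 myocyte markers, with all arrays kept, left RYR2 short of the threshold in both RA comparisons. Leaving out the library labelled RA late 3 as well was a combination chosen after seeing the data. The RA early and RA late differences were then both -0.69 and both passed (adjusted p = 0.0222 in early and 0.0317 in late HF). The median of all probe sets stood at 0.12 and 0.16 there. In the RV the differences were -0.39 (SE 0.24, adjusted p = 0.751) in early and -0.38 (SE 0.24, adjusted p = 0.644) in late HF, and did not pass with or without that library.

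The second, dimmer RYR2 probe set had differences of -0.50 in RA early HF, -0.35 in RA late HF, 0.09 in RV early HF and -0.29 in RV late HF, with groups that overlapped in all 4. Without the library labelled RA late 3 its RA late difference was -0.88 (SE 0.20, adjusted p = 0.0424). The size of the RYR2 difference in RV early HF thus depends on the probe set, and its sign does too. The 3' minus 5' signal of GAPDH, a sign of RNA degradation when high, averaged 1.46 in RA early HF and 1.32 in RA controls (ranges 1.29 to 1.62 and 1.15 to 1.61, which overlap). The part of RNA quality, and of the fibroblast markers that were also higher on the RA early arrays, in the RYR2 difference was not tested beyond the centring on myocyte markers.

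TRDN encodes triadin, which anchors calsequestrin to the ryanodine receptor at the junctional SR. In RA its signal was 11.32, 11.26 and 11.43 in controls, 11.37, 10.79 and 11.18 in early HF, and 11.73, 11.36 and 11.73 in late HF. In RV it was 11.63, 11.70 and 11.77 in controls, 11.62, 11.74 and 12.08 in early HF, and 11.69, 12 and 11.96 in late HF. All 4 HF comparisons had overlapping groups. Differences were -0.22 (SE 0.15) in RA early HF, 0.27 (SE 0.15) in RA late HF, 0.11 (SE 0.15) in RV early HF and 0.18 (SE 0.15) in RV late HF, with adjusted p of 0.587, 0.512, 0.926 and 0.73. A dim TRDN probe set was lower in RA early HF when the library labelled RA late 3 was left out (-0.98, SE 0.25, adjusted p = 0.0428). In that fit 2 of the 25 probe sets passed, this one and the brightest of RYR2, against 1.37% of genes lower. The other TRDN probe sets had differences from -0.56 to 0.20 in RA early HF, and none of them passed.

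**Figure D2:**
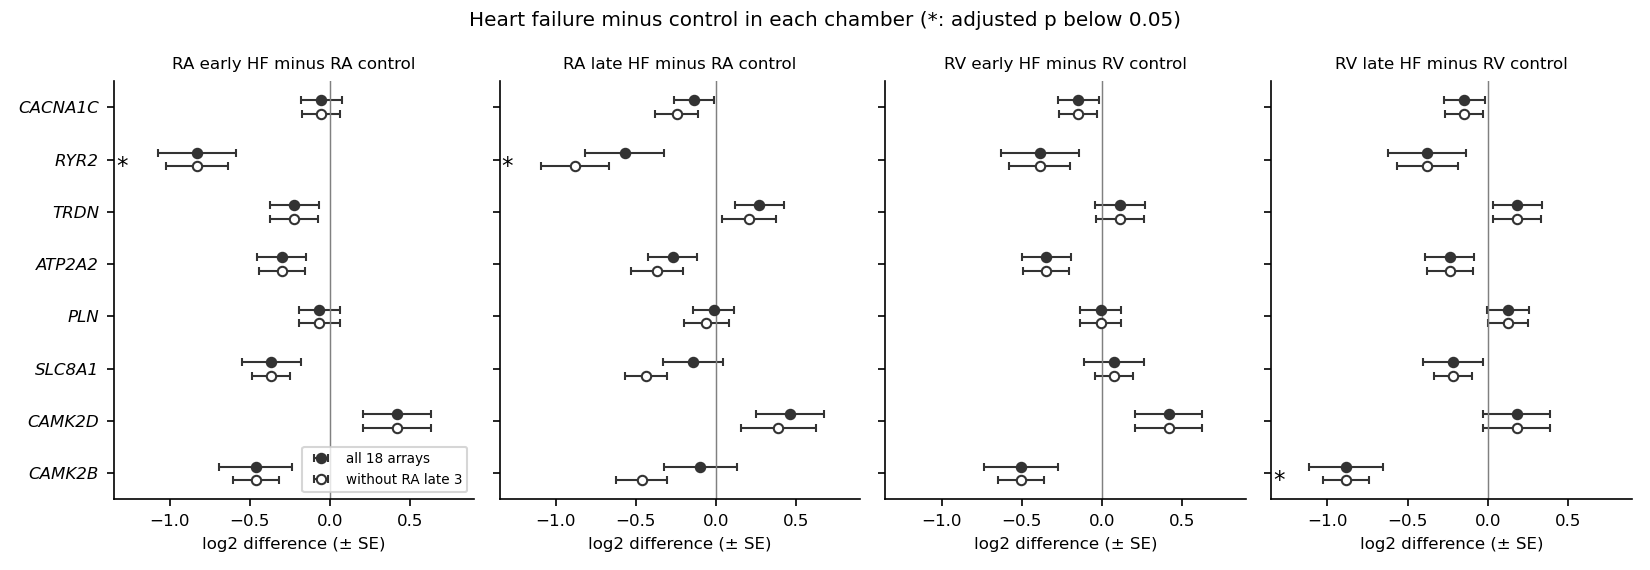
Difference between HF and control in log2 signal (horizontal axis, with the SE of the fit) for the 8 genes in the 4 HF comparisons, with all 18 arrays (filled) and without the library labelled RA late 3 (hollow). Stars mark differences past the threshold, which are RYR2 in both RA comparisons and CAMK2B in RV late HF, all only without that library.

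ATP2A2 encodes SERCA2, the pump that returns calcium to the SR. The RA signal was 13.53, 13.46 and 13.47 in controls, 13.24, 13.24 and 13.08 in early HF, and 12.77, 13.47 and 13.41 in late HF. The RV signal was 13.51, 13.46 and 13.47 in controls, 12.87, 13.33 and 13.20 in early HF, and 13.22, 13.08 and 13.43 in late HF. The 6 controls of both chambers lay between 13.46 and 13.53. Of the 12 arrays with HF, RA late 2 at 13.47 reached that range and the other 11 lay below it. The differences were -0.30 (SE 0.15, adjusted p = 0.405) in RA early, -0.27 (SE 0.15, adjusted p = 0.51) in RA late, -0.35 (SE 0.15, adjusted p = 0.541) in RV early and -0.24 (SE 0.15, adjusted p = 0.643) in RV late HF, so none passed. The interval in RV early HF was -0.67 to -0.02. The signal lies close to the highest values of the arrays (14.40 to 14.49). The other ATP2A2 probe set, which was far dimmer (group means 6.14 to 6.74), did not share these signs: its differences were 0.48, 0.13, 0.17 and -0.10 in the same order, and none passed.

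PLN encodes phospholamban, which inhibits SERCA2 until it is phosphorylated. In RA its signal was 13.04, 12.57 and 12.85 in controls, 12.75, 12.64 and 12.87 in early HF, and 12.58, 12.94 and 12.90 in late HF. In RV it was 12.88, 13.01 and 13.09 in controls, 12.76, 13.10 and 13.10 in early HF, and 13.04, 13.14 and 13.18 in late HF. All HF groups overlapped their controls. The differences were -0.07 (SE 0.13) in RA early, -0.01 (SE 0.13) in RA late, -0.01 (SE 0.13) in RV early and 0.13 (SE 0.13) in RV late HF. Over the 4 comparisons, the 95% intervals reached from -0.34 at the lowest to 0.40 at the highest.

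Because phospholamban acts on SERCA2, the log2 signal of PLN minus that of ATP2A2 was taken on each array, a measure chosen after the values were seen. Its level has no meaning across probe sets, and only its shift between arrays can be read. In RV with HF it was -0.11, -0.23 and -0.10 (early) and -0.18, 0.06 and -0.25 (late), against -0.63, -0.45 and -0.38 in RV controls. Every RV array with HF lay above every RV control. The mean was -0.14 (SD 0.11, n = 6) in RV with HF and -0.49 (SD 0.13, n = 3) in RV controls, a difference of 0.35. It is given as a description with no test, since the lower ATP2A2 signals of the RV arrays with HF, described above, prompted the measure. In RA with HF it was -0.49, -0.60 and -0.21 (early) and -0.19, -0.53 and -0.51 (late), against -0.49, -0.89 and -0.62 in RA controls. These RA groups overlapped and differed by 0.24 in the mean. With the second PLN probe set in place of the brightest, the RV difference was 0.37. With the other, dimmer ATP2A2 probe set it was 0.03 in RV and -0.34 in RA, and both pairs of groups overlapped. The RV difference thus rests on the brighter ATP2A2 probe set.

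**Figure D3:**
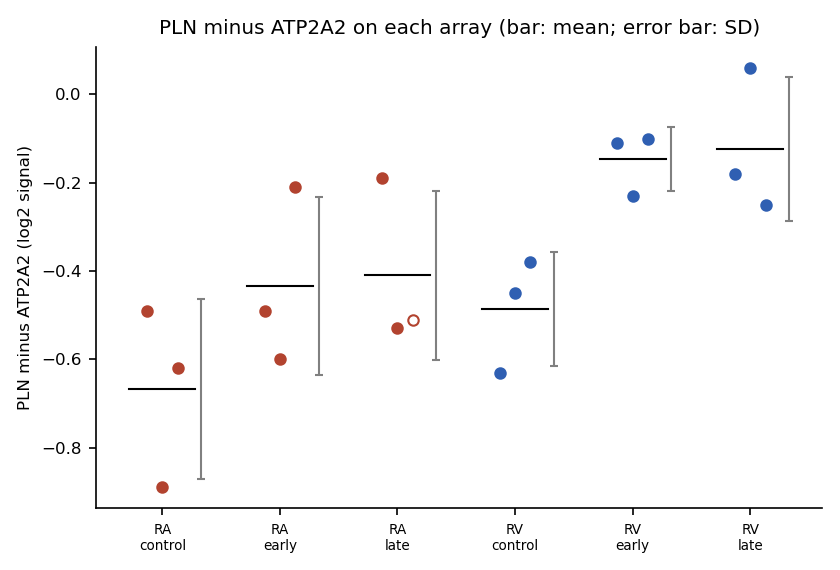
Log2 signal of PLN minus that of ATP2A2 (vertical axis) on each of the 18 arrays by chamber and stage, with group means (bars) and the SD of 3 arrays (error bars). The hollow point is the library labelled RA late 3. The 6 RV arrays with HF lie at -0.25 to 0.06 and the 3 RV controls at -0.63 to -0.38.

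SLC8A1 encodes the sodium-calcium exchanger, the main route of calcium out of the myocyte. The RA signal was 6.75, 6.60 and 7.12 in controls, 6.54, 6.36 and 6.47 in early HF, and 6.36, 6.41 and 7.27 in late HF. All early arrays lay below the controls, and so did the late ones other than the library labelled RA late 3, which was the highest of the 18. The RV signal was 6.80, 6.88 and 6.87 in controls, 6.82, 6.99 and 6.97 in early HF, and 6.52, 6.80 and 6.58 in late HF. The differences were -0.37 (SE 0.19, adjusted p = 0.401) in RA early, -0.14 (SE 0.19, adjusted p = 0.801) in RA late, 0.08 (SE 0.19, adjusted p = 0.967) in RV early and -0.22 (SE 0.19, adjusted p = 0.737) in RV late HF. The RA late difference was -0.44 (SE 0.13, adjusted p = 0.0899) without the library labelled RA late 3. The limit of the low-signal filter was 5.31, and the other SLC8A1 probe set fell under it.

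CAMK2D encodes the delta form of the calcium/calmodulin-dependent kinase II, the main form in the heart, which phosphorylates both RYR2 and PLN. In RA its signal was 6.52, 7.20 and 6.56 in controls, 7.43, 7.09 and 7.01 in early HF, and 7.42, 6.88 and 7.37 in late HF. In RV it was 7.19, 7.33 and 7.04 in controls, 7.52, 7.30 and 7.99 in early HF, and 7.29, 7.65 and 7.16 in late HF. It was the only gene of the 8 with a positive difference in all 4 comparisons, at 0.42 (SE 0.21, adjusted p = 0.404) in RA early, 0.46 (SE 0.21, adjusted p = 0.412) in RA late, 0.42 (SE 0.21, adjusted p = 0.634) in RV early and 0.18 (SE 0.21, adjusted p = 0.81) in RV late HF. None passed, all 4 pairs of groups overlapped, and RA control 2 at 7.20 lay well above the other RA controls. The other 3 CAMK2D probe sets past the filter disagreed in sign: their differences ranged from -0.40 to 0.17 in RA early HF, from -0.31 to 0.19 in RA late HF, from 0.15 to 0.35 in RV early HF and from -0.28 to 0.21 in RV late HF.

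CAMK2B encodes the beta form of the same kinase. The RA signal was 7.19, 7.42 and 7.42 in controls, 6.94, 6.51 and 7.19 in early HF, and 6.78, 6.98 and 7.98 in late HF, where the library labelled RA late 3 was again the highest. The RV signal was 7.98, 7.81 and 7.93 in controls, 7.24, 7.53 and 7.44 in early HF, and 6.91, 7.13 and 7.03 in late HF. The 3 RV groups did not overlap, with controls highest and late HF lowest. The difference was -0.50 (SE 0.23, adjusted p = 0.566) in RV early and -0.88 (SE 0.23, adjusted p = 0.418) in RV late HF, where the signal was 1.84-fold below controls. Without the library labelled RA late 3, the RV late difference was the same with an SE of 0.14 and passed (adjusted p = 0.0264), and when only the RV late and RV control arrays were fitted it also passed (adjusted p = 0.01). Centred on the myocyte markers with all arrays kept, CAMK2B passed at neither RV stage. Leaving out the library as well, a combination chosen after seeing the data, it passed in RV early HF (-0.69, SE 0.17, adjusted p = 0.0429). CAMK2B also passed in RV late HF under that combination (-0.90, SE 0.17, adjusted p = 0.0261). That centring placed the median of all probe sets at -0.20 in RV early and -0.03 in RV late HF. The other CAMK2B probe set had differences of -0.23 in RV early and -0.45 in RV late HF, both without overlap of the groups and neither past the threshold. The 3' minus 5' signal of GAPDH was 1.28 to 1.47 in RV late HF and 1.05 to 1.25 in RV controls (means 1.36 and 1.17), without overlap, and 1.09 to 1.42 in RV early HF. Its part in the CAMK2B difference, and in the other genes whose RV late and control arrays did not overlap, was not tested. In RA the differences were -0.46 (SE 0.23, adjusted p = 0.388) in early and -0.10 (SE 0.23, adjusted p = 0.897) in late HF. The late value was -0.46 (SE 0.16, adjusted p = 0.137) without the library labelled RA late 3.

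The library labelled RA late 3 entered the RV results through the spread, since all groups share 1 estimate of it. Its CAMK2B signal of 7.98 and SLC8A1 signal of 7.27 lay outside the 6.51 to 7.19 and 6.36 to 6.54 of the other RA arrays with HF, and so did its RYR2 signal of 12.34 against 10.92 to 11.91. For CACNA1C, TRDN, ATP2A2, PLN and CAMK2D its signal lay within the range of those arrays, and without it their RA late differences were -0.25, 0.21, -0.37, -0.06 and 0.39, none past the threshold.

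Late and early HF were compared directly within each chamber. With 0% of all genes past the threshold in either chamber, 0 of the 8 genes passed by limma, and 1 in RA and 0 in RV had an unadjusted p under 0.05. That gene was TRDN in RA, with a difference of 0.49 (SE 0.15, adjusted p = 0.438) between late and early HF. In RA 7 of 8 differences between late and early HF were positive with all arrays (median 0.14). Without the library labelled RA late 3, 2 of 8 were positive (median -0.04) and 0 passed. The RA late mean of TRDN was then 11.545, still above the 11.11 of RA early HF. In RV, all late arrays lay below all early ones for SLC8A1 (-0.29, SE 0.19, adjusted p = 0.949) and CAMK2B (-0.38, SE 0.23, adjusted p = 0.945), 2 of 8 genes against 6.69% of all genes. The HF effects of the chambers were compared by an interaction term. At 0% of all genes past the threshold, 0 of 8 passed at either stage, and 0 in early and 1 in late HF had an unadjusted p under 0.05. That gene was CAMK2B, with a difference of 0.79 between its late HF effects in RA and RV (SE 0.32, adjusted p = 0.611). Without the library labelled RA late 3 it was 0.42 (SE 0.22, adjusted p = 0.654). A difference in HF effect between RA and RV is therefore not shown for any of the 8 genes.

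The design also sets the atrium against the ventricle. Most of the differences were negative, that is, lower signals in RA: 7 of 8 in controls (median -0.17), 7 of 8 in early HF (median -0.45) and 6 of 8 in late HF (median -0.15), where all genes had medians of -0.02, -0.03 and 0.00. In controls 0 of 8 genes passed by limma (2.69% of all genes did), and 2 had an unadjusted p under 0.05. These were TRDN at -0.36 (SE 0.15, adjusted p = 0.244) and CAMK2B at -0.56 (SE 0.23, adjusted p = 0.223), and both lay lower on all 3 RA than on all 3 RV controls, as did RYR2. That is 3 of 8 genes against 14.5% of all genes. The dimmer CAMK2B probe set passed as lower in RA controls (-0.51, SE 0.13, adjusted p = 0.0382, against 1.21% of probe sets lower). Its call was lost when any 1 of the control arrays was left out, and without RV late 3. It was also lost with no filter on low signal and with centring on the myocyte markers. With the replicate number as a block, a TRDN probe set other than the brightest also passed between the controls (-0.75, SE 0.18, adjusted p = 0.0405 by limma). With the library labelled RA late 3 left out, CAMK2B itself passed too (-0.56, SE 0.14, adjusted p = 0.0279, against 2.11% of genes lower).

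In early HF, TRDN was lower in RA than in RV by 0.70 on the log2 scale, a 1.62-fold difference, and it was the only gene of the 8 past the threshold (-0.70, SE 0.15, adjusted p = 0.0152, against 2.59% of genes lower and 5.6% in either direction). The signals given above show it on each array, with 10.79 to 11.37 in RA and 11.62 to 12.08 in RV. All 9 TRDN probe sets had negative differences, from -0.37 to -0.95, and 4 of them passed (5 with the replicate number as a block, by limma). They are repeated readings of the same gene. The share set beside them is the 2.59% of genes lower in the fit without a block, since a share of probe sets is not given for it. RYR2, SLC8A1 and CAMK2B also lay lower on every RA than on every RV array, 4 of 8 genes with TRDN, against 11.3% of all genes. The call for TRDN was lost without RA early 2 (-0.54, adjusted p = 0.0572), without RV early 3 (-0.57, adjusted p = 0.0901) and when only these 6 arrays were fitted (-0.70, adjusted p = 0.0586). It was also lost when the arrays were centred on the 13 myocyte markers (-0.30, SE 0.18, adjusted p = 0.157), whose mean signal was 12.29 to 12.54 in RA early HF and 12.66 to 12.91 in RV early HF. With that centring ATP2A2, which otherwise differed by 0.05 between the chambers, was 0.45 higher in RA early HF (SE 0.15, adjusted p = 0.0309). The median of all probe sets was 0.37 with that centring and -0.03 without it, so that relative to all probe sets TRDN stayed lower and ATP2A2 lay close to them. Without the library labelled RA late 3, TRDN (adjusted p = 0.0066), SLC8A1 (-0.47, SE 0.12, adjusted p = 0.0168) and CAMK2B (-0.52, SE 0.14, adjusted p = 0.0298) were lower in RA, 3 of 8 genes against 3.61%, and so were 11 of the 25 probe sets against 3.92%. Of the 25, 9 are of TRDN and 4 of CAMK2D, so the probe sets are repeated readings of few genes.

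In late HF 0 of 8 genes passed by limma (0.0273% of all genes did) and 1 had an unadjusted p under 0.05, namely PLN at -0.31 (SE 0.13, adjusted p = 0.386). PLN lay at 12.58 to 12.94 in RA and 13.04 to 13.18 in RV, the only gene of the 8 without overlap, against 6.76% of all genes. This comparison holds the library labelled RA late 3 on its RA side. Without it 0 of 8 genes passed (0.919% of genes were lower) and all 8 differences were negative, with a median of -0.26. The dimmer RYR2 probe set then passed (-0.94, SE 0.20, adjusted p = 0.0209).

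**Figure D4:**
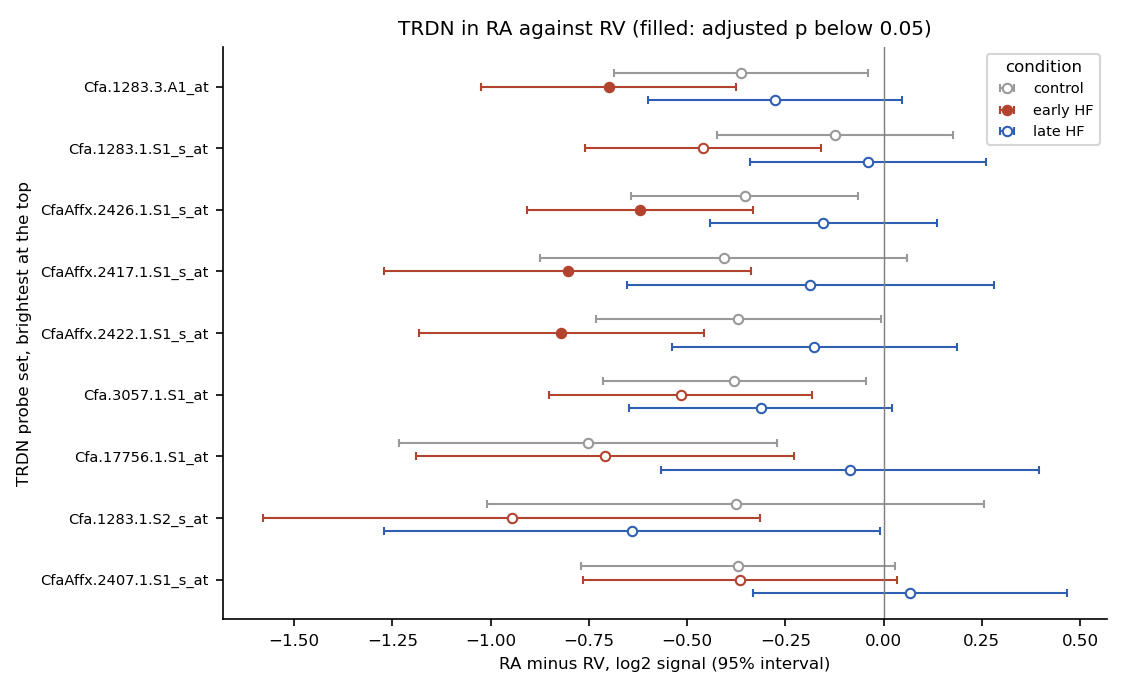
RA minus RV difference in log2 signal (horizontal axis, with the 95% interval of the fit) for each of the 9 TRDN probe sets, brightest at the top, in controls, early HF and late HF. Filled points passed the threshold. In early HF all 9 points lie below 0 and 4 are filled, and in controls and late HF none is filled (fit without a replicate block).

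Averaged over controls, early HF and late HF, TRDN was lower in RA by 0.45 (-0.45, SE 0.09, adjusted p = 0.00351) and PLN by 0.24 (-0.24, SE 0.07, adjusted p = 0.0422). These were 2 of 8 genes, against 5.5% of all genes lower and 13.1% past the threshold in either direction. Of the 25 probe sets, 12 were lower and 0 higher (5.74% of all probe sets were lower), and 23 had negative differences. The 12 were 7 of TRDN, 2 of PLN, 2 of CAMK2D and 1 of CAMK2B. With the replicate number as a block the dimmer RYR2 probe set passed (-0.56, SE 0.15, adjusted p = 0.0311 by limma) and 1 of the 2 of CAMK2D did not. The TRDN call held in each of 18 fits that left out 1 array and the PLN call in 6 of them. Centred on the myocyte markers, neither passed (TRDN -0.24, adjusted p = 0.0806, and PLN -0.03, adjusted p = 0.768), with the median of all probe sets at 0.18. The myocyte markers were themselves lower in RA in 5 of 13 cases and higher in 1, with a median of -0.25. Their part in the lower signals of TRDN and PLN in RA was not tested. Fibroblast markers were higher in RA in 8 of 10 cases (median 1.04). With the library labelled RA late 3 left out, RYR2 (-0.45, SE 0.11, adjusted p = 0.0097), SLC8A1 (-0.25, SE 0.07, adjusted p = 0.0184) and CAMK2B (-0.41, SE 0.09, adjusted p = 0.00275) passed beside TRDN and PLN, 5 of 8 genes against 8.95% of genes lower, with 17 of 25 probe sets lower against 9.49%. Several of these probe sets read the same gene. ATP2A2 was the member nearest to 0 in the mean over stages, at 0.01 (SE 0.09, 95% interval -0.18 to 0.20). Its other, dimmer probe set had a difference of 0.21 there and did not pass.

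The 6 group means of each gene differed in order. For RYR2, RV controls were highest (12.43, SD 0.03) and RA early HF lowest (11.46, SD 0.24), and RV controls were the only group that did not overlap its next neighbour. CACNA1C also had RV controls highest (6.39, SD 0.06), without overlap with RV early HF, and RA late HF lowest (6.08, SD 0.24). For CAMK2B, RV controls (7.91, SD 0.09) again stood clear of the next group and RA early HF was lowest (6.88, SD 0.34). ATP2A2 was highest in RA controls (13.49, SD 0.04) and RV controls (13.48, SD 0.03), which overlapped each other and stood clear of the next group, and lowest in RV early HF (13.13, SD 0.24). Groups further down the order still reached into these top groups. RA early HF reached 6.36 for CACNA1C, and RA late HF reached 7.98 for CAMK2B and 13.47 for ATP2A2. TRDN ran from 11.88 (SD 0.17) in RV late HF to 11.11 (SD 0.30) in RA early HF and PLN from 13.12 (SD 0.07) in RV late HF to 12.75 (SD 0.12) in RA early HF, with each neighbour overlapping the next. SLC8A1 ran from 6.93 (SD 0.09) in RV early HF to 6.46 (SD 0.09) in RA early HF, and CAMK2D from 7.60 (SD 0.35) in RV early HF to 6.76 (SD 0.38) in RA controls, also with overlapping neighbours. RA early HF was thus the lowest group for RYR2, TRDN, PLN, SLC8A1 and CAMK2B with all arrays. With the library labelled RA late 3 left out, RA late HF had means of 11.42 for RYR2, 6.38 for SLC8A1 and 6.88 for CAMK2B, below RA early HF for RYR2 and SLC8A1 and equal to it for CAMK2B. For ATP2A2 the RA late mean was then 13.12, just below the 13.13 of RV early HF.

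Other genes of calcium handling were followed through 10 lists, of which 92 genes outside the 8 were named on the array and 71 were tested. In the 4 HF comparisons 0 of 71 passed, with or without the library labelled RA late 3, and so it was for late against early HF and for the interaction. The nearest to the threshold in RA early HF were FXYD1, phospholemman, a regulator of the sodium pump (-0.47, SE 0.13, adjusted p = 0.102), and PPP1R1A, an inhibitor of protein phosphatase 1 (-0.53, SE 0.17, adjusted p = 0.141). In RV early HF the release channel's partner FKBP1B had -1.19 (SE 0.44, adjusted p = 0.401), and the T-tubule associated genes TCAP and CAV3 had 0.56 (SE 0.15, adjusted p = 0.184) and 0.58 (SE 0.18, adjusted p = 0.292). In RV late HF ATP2B2, a plasma membrane calcium pump, had 0.52 (SE 0.16, adjusted p = 0.428). By list, the SR release genes had 4 of 7 negative differences in RA early and in RA late HF (median -0.09 in each). In RV they had 5 of 7 in early and in late HF (median -0.20 in each). The SR uptake genes had 5 of 6 negative in RA early HF (median -0.12), 4 of 6 in RA late HF (-0.085) and 4 of 6 in RV early HF (-0.08). In RV late HF 3 of 6 were negative (0.02). Medians over all genes were -0.02, -0.0033, -0.01 and -0.01 in RA early, RA late, RV early and RV late HF. The export genes had 5 of 5 positive differences in RV early HF (median 0.18) and again in RV late HF (median 0.17). The same list had 4 of 5 positive in RA early HF (median 0.06) and 1 of 5 in RA late HF (median -0.06).

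Between the chambers some of these genes passed the threshold. In controls 1 of 71 was higher and 1 lower in RA, against 2.69% of all genes in either direction. In early HF 2 of 71 were higher and 3 lower, against 5.6%. CACNA2D3, an auxiliary alpha2delta subunit of calcium channels, was higher in RA controls by 1.62 (SE 0.38, adjusted p = 0.0297), with 7.46 (SD 0.41) in RA and 5.84 (SD 0.06) in RV, and in RA early HF by 1.87 (SE 0.38, adjusted p = 0.011). Its sign was opposite to that of TRDN, the one gene of the 8 past the threshold in early HF. VDAC1, the porin of the outer mitochondrial membrane, was lower in RA controls (-0.53, SE 0.13, adjusted p = 0.0451). In early HF, TCAP (-0.87, SE 0.15, adjusted p = 0.00547), FXYD1 (-0.67, SE 0.13, adjusted p = 0.00999) and PPP1R1A (-1.28, SE 0.17, adjusted p = 0.000982) were lower in RA, and PPP3CA, a catalytic subunit of calcineurin, was higher (0.75, SE 0.17, adjusted p = 0.0162). In the mean over stages 7 of 71 genes were higher in RA and 9 lower, against 7.64% and 5.5% of all genes. The SR release list had 2 lower genes, CASQ1 (-0.99, SE 0.30), the skeletal muscle paralogue of CASQ2, and ASPH (-0.37, SE 0.11), whose locus also encodes junctin, a partner of triadin. PDE3A, a phosphodiesterase that breaks down cAMP, was also lower (-0.68, SE 0.15, adjusted p = 0.00597), as was PRKACB, a catalytic subunit of protein kinase A (-0.32, SE 0.10). CALM2, a calmodulin gene, was higher (0.32, SE 0.10, adjusted p = 0.0386), as was MCUB, a subunit of the mitochondrial calcium uniporter (0.59, SE 0.16). Of 13 genes of calcium stores in the endoplasmic reticulum and mitochondria, 4 were higher and 2 lower in RA. The higher ones included SDF4 (0.29, SE 0.07, adjusted p = 0.00961) and RCN2 (0.62, SE 0.16, adjusted p = 0.018). The endoplasmic reticulum chaperones CALR and CANX, chosen after their values were seen, had 0.23 (SE 0.07, adjusted p = 0.0392) and -0.27 (SE 0.08, adjusted p = 0.0381). Of 18 genes of protein kinase A, phosphatases and phosphodiesterases, 1 was higher and 3 were lower, and of 6 SR uptake genes none passed in either direction. Without the library labelled RA late 3, 11 were higher and 10 lower in the mean over stages, against 12.4% and 8.95% of all genes, and in late HF, where with all arrays 0 had passed, 3 were higher and 2 lower, against 1.98% and 0.919%.

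Among the 8 genes, RYR2 and ATP2A2 varied together over the 18 arrays (Pearson r 0.80), as did SLC8A1 and CAMK2B (0.78) and RYR2 and CAMK2B (0.71), whereas CAMK2D and ATP2A2 had r of -0.53. TRDN correlated with its partner RYR2 at only 0.31. These correlations are descriptions across arrays that share chambers and stages. Of all genes tested, those closest to RYR2 were NDUFV1 (0.94), a subunit of respiratory complex I, and UQCRC1 (0.94), a core subunit of complex III. Closest to TRDN were SUCLG2 (0.92) and GKAP1 (0.91), closest to ATP2A2 EPB41L2 (0.87) and ZC2HC1C (0.87), and closest to PLN SLC25A16 (0.86) and NRBP2 (0.85). For CACNA1C they were CNNM4 (0.92) and ZDHHC1 (0.90), for SLC8A1 LRRC2 (0.83) and BCKDHB (0.79), for CAMK2D RAE1 (0.90) and EIF3J (0.88), and for CAMK2B SLC43A1 (0.89) and GCDH (0.87), each over the same 18 arrays.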

How the data were processed

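Total RNA of 18 dog heart samples was hybridised to Affymetrix Canine_2 arrays, 3 per chamber and stage. The authors deposited 1 table of log2 signals per probe set. Per the submitters' processing notes the values come from MAS5. The log2 scale was read from the values, and array medians between 5.65 and 5.75 show that the arrays were already scaled alike. The step that scaled them is not given in the sources used here, and no further normalization was applied. Signals close to background or to the top of the scale understate differences.

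Of 43035 probe sets, 111 controls were left out. Platform annotation gave 29254 of the others 1 gene symbol, 439 several and 13231 none. The 40% of lowest mean signal were left out, which kept 25752 probe sets and 10988 genes, each gene standing by its brightest probe set. Differences were fitted with limma 3.58.1 in R 4.3.3 as 6 group means over 18 arrays (12 residual degrees of freedom, trended empirical Bayes), with Benjamini-Hochberg adjustment over all probe sets tested in each of 12 comparisons and a threshold of 0.05. The fit was tested on simulated data. The difference of PLN and ATP2A2 on each array is a description with no test. Tables and figures were made in Python 3.11.15 with numpy 2.4.6, pandas 2.3.3 and matplotlib 3.10.9. With 3 arrays a group, the number of arrays limits the precision.

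The genes, the 10 lists of calcium genes and the marker lists were chosen with earlier results of these data known. The text names all 8 genes, from each list the genes past the threshold (at most 4 per comparison, or the 2 of smallest p where none passed, of which a selection is printed), and for each of the 8 genes the 2 others of highest Pearson correlation. CALR and CANX fall outside that rule and were chosen after their values were seen. The myosin light chains, TNNT2 and GAPDH were named as checks of the tissue and the RNA.

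Any 2 arrays differed in at least 97.5% of their values, so none was a copy. The labels do not say that arrays of the same number share a dog. Deviations from group means of same-numbered RA and RV arrays correlated at 0.36, 0.24 and 0.42 in controls. They correlated at 0.17, 0.26 and 0.15 in early HF and at 0.05, -0.42 and 0.15 in late HF. The main fit used no pairs. For RA against RV, the replicate block paired same-numbered arrays in controls, early HF and late HF alike. Alternatives were the low-signal filter, quantile normalization, centring on array medians or on cardiac myocyte markers, the variance prior, array weights, fits of only the compared groups, other choices of probe set, a replicate block and leaving out each array.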

Additional observations from a re-analysis of the deposited data

How the results depend on the processing

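Over 2860 results of single genes under the alternatives, 2792 stayed on their side of the threshold, 42 passed it where they had not, 26 no longer passed, and 0 reversed among those past it. Of the 2792, 169 had the other sign while not past the threshold in either fit. Counts are of the 8 genes past the threshold by limma, and the cause of each move was not tested. With array weights, a fit whose weights stopped before their convergence tolerance, the counts were 1 in RA early HF, 2 in RA late HF (RYR2 and SLC8A1), 1 in RV late HF, 2 between RA late and RA early HF, and, for RA against RV, 4 in early HF, 2 in late HF and 6 in the mean over stages. Fits of only the compared groups gave 1 in RA early HF, 1 in RV late HF and 2 between RA and RV controls (TRDN and CAMK2B). The mean of RA minus RV over stages had 2, and 1 with no filter on low signal, 1 with only the lowest 20% left out, 1 with centring on array medians, 1 without probe sets ending in _s_at or _x_at, and 0 with centring on myocyte markers. Chosen after seeing the data, leaving out RA late 3 together with centring on myocyte markers gave 1 in each of RA early, RA late, RV early and RV late HF and 1 in the mean over stages, where the gene was ATP2A2, higher in RA by 0.22 (adjusted p = 0.0417) with the median of all probe sets at 0.22. Leaving out each array in turn, the counts were 0 to 1 in RA early, RA late and RV late HF and between controls, 0 to 3 for RA against RV in early HF and 1 to 5 in the mean over stages, and the highest count was reached without RA late 3 in each of these. The RV difference in PLN minus ATP2A2, also chosen after seeing the data and not tested, was between 0.28 and 0.405 with each array left out in turn. With the other ATP2A2 probe set it was 0.028 in RV and -0.345 in RA. With the replicate number as a block (TRDN in early HF -0.70, adjusted p = 0.019, and in the mean over stages adjusted p = 0.00688, PLN adjusted p = 0.04), the counts were 1 and 2 in those comparisons and 0 in the other 10, so the pairing changed no call of a gene by its brightest probe set. Among the other probe sets the block added calls for TRDN between RA and RV controls (adjusted p = 0.0405) and in early HF, where 5 of 9 passed, and in the mean over stages for RYR2 (adjusted p = 0.0311), and 1 CAMK2D call was lost. Within a chamber, where same-numbered arrays share only a number, the block also gave 0. Dim probe sets near the filter's limit of 5.31 and 3 arrays a group limit what could be detected.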
